A study of Mus musculus with 2 samples.

Results

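The 10 neuropeptide precursor genes Tac1, Sst, Penk, Pdyn, Npy, Cck, Nts, Calca, Adcyap1 and Crh were followed across the cell clusters and both genotypes of a single-nucleus RNA-seq experiment on mouse brainstem. They were chosen by name as peptide genes of the brainstem, and all 10 were found among the 25556 genes of the counts. The WT library came from 1 mouse with intact Scn1a, and the HET library from 1 mouse carrying the Scn1a A1783V missense knock-in on 1 allele, a model of Dravet Syndrome. Both mice were female, on a C57Bl6 background and at postnatal day 41, and the HET had therefore lived past the weeks in which many such mice die. HETs were bred from a male with a floxed stop Scn1a A1783V allele and a Sox2-Cre female, a Cre that acts in nearly the whole embryo. WTs were littermates. Whether the WT mouse carried Cre is not given in the sources used here. Each genotype had 1 library, so there was no replicate and no test between genotypes, and every interval below is a 95% interval that covers counting error only. The difference between these genotypes cannot be told apart from the difference between these 2 animals, dissections and libraries.

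Neuropeptides are made as long precursor proteins, cut by convertases inside dense-core vesicles and released during sustained firing, after which they act on G protein-coupled receptors. In the brainstem, substance P from Tac1 and PACAP from Adcyap1 excite breathing neurons, and the enkephalins from Penk and dynorphins from Pdyn act on opioid receptors that slow breathing. Somatostatin, from Sst, marks a population of the preBötzinger complex, the source of inspiratory rhythm. Cck, Nts and Npy encode cholecystokinin, neurotensin and neuropeptide Y, Calca encodes calcitonin gene-related peptide, made among other sites by motor neurons, and Crh encodes corticotropin-releasing hormone, which is also made in the climbing fibre neurons of the inferior olive.

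The genes are short. Their GENCODE models span from 1386 bases for Sst to 13280 bases for Pdyn on mm10, the build of the counts, and lie on 9 chromosomes. Sst lies at chr16:23889573-23890958 on the minus strand, Crh at chr3:19693401-19695396 on the minus strand, Nts at chr10:102481756-102490486 on the minus strand and Tac1 at chr6:7554879-7565834 on the plus strand. Penk is the only member overlapped by another gene model, A830012C17Rik on the opposite strand. Calca shares much of its sequence with its neighbour Calcb, and reads common to the pair may be split or lost, so values of both are uncertain.

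Many peptide genes are induced through the cAMP response element, the site of CREB, and the somatostatin promoter is the classic example. The 250 bases before the RefSeq start were therefore searched on both strands for TGACGTCA and for its first 5 letters, TGACG, which the longer motif contains. The table used here holds promoters of 8 members. The longer motif was present in 1 of them, Sst, and in 1.55% of all 32851 promoters, and the shorter one in 6, against 17.8% of all promoters. Members were counted by gene and the background by promoter. A gene can have several promoters, so the counts are not fully alike. The 6 windows of 30 bases are printed 5′ to 3′ in the direction of the gene, with the match in capitals, to show that these letters lie near the start of members that are otherwise unlike in sequence. The coordinates are on GRCm38.p6. A match is a description of letters and not of a bound site.
Sst, chr16:23890874-23890903, minus strand, match 48 bases before the start: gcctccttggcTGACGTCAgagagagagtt
Tac1, chr6:7555005-7555034, plus strand, match 43 bases before the start: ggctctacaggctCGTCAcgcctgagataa
Cck, chr9:121495725-121495754, minus strand, match 47 bases before the start: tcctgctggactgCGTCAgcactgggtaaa
Calca, chr7:114636406-114636435, minus strand, match 65 bases before the start: ggaagcacagaggTGACGcaatctgtctgg
Adcyap1, chr17:93198913-93198942, plus strand, match 91 bases before the start: gggactaggatgcTGACGtcttttactgat
Nts, chr10:102490568-102490597, minus strand, match 166 bases before the start: aattagggaagatCGTCActttccatcaag
Tac1 had 2 matches, of which the nearer is shown, and the distance of Adcyap1 is from the nearer of its RefSeq starts. Neither motif was in the windows of Pdyn and Npy.

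The WT library held 9259 nuclei with 70301390 UMIs (unique molecular identifiers, 1 per captured RNA molecule) and the HET library 9022 nuclei with 66176778 UMIs. Median depth was 5456 and 5646 UMIs per nucleus, and 66.1% and 59.8% of the nuclei were in the authors' neuronal clusters, neuron.1 to neuron.9. The libraries shared 23 cell barcodes. Markers of brainstem neurons were present in both, with Slc6a5 of glycinergic neurons at 84.8 CPM (UMIs per 1000000) in WT and 56.1 CPM in HET and 3 serotonergic genes at a summed 13.5 and 16.7 CPM. The libraries differed beyond the peptides: the median share of ribosomal protein UMIs was 0.696% in WT and 0.407% in HET, and 4 clusters, neuron.6, neuron.8, neuron.9 and epend.2, came mostly from WT, with 2 to 9 HET nuclei each. Markers of neighbouring tissue also differed, with summed levels in WT and HET of 401 and 44.7 CPM for 3 choroid plexus genes, 98.1 and 61.3 CPM for 3 inferior olive genes, 5.72 and 26.6 CPM for 4 granule cell genes, 10.0 and 3.88 CPM for 5 hypothalamic genes and 6.19 and 0.106 CPM for 2 pituitary genes. Their part in the peptide values was not tested. Scn1a itself was measured at 380 CPM in WT and 420 CPM in HET, which does not check the genotype, since a missense allele is still transcribed.

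Precursor UMIs were not confined to neurons. In the WT library, Sst stood at 46.5 CPM in neuronal clusters and at 96.1 CPM in oligodendrocytes and astrocytes, and in the HET library at 33.2 and 58.9 CPM. These glial nuclei were those that both deposited labels called by the same name, 2344 in WT and 3075 in HET, with median depths of 2773 and 2938 UMIs against 7729 and 8390 UMIs in neuronal clusters. Across the 10 genes the glial level was 51.4% to 214% of the neuronal level in WT and 88.6% to 179% in HET. A level of a precursor at or below that in glia was therefore read as background. RNA free in the suspension was not measured here, since no empty droplets were used, so how much of the glial level was free RNA was not tested.

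**Figure D1:**
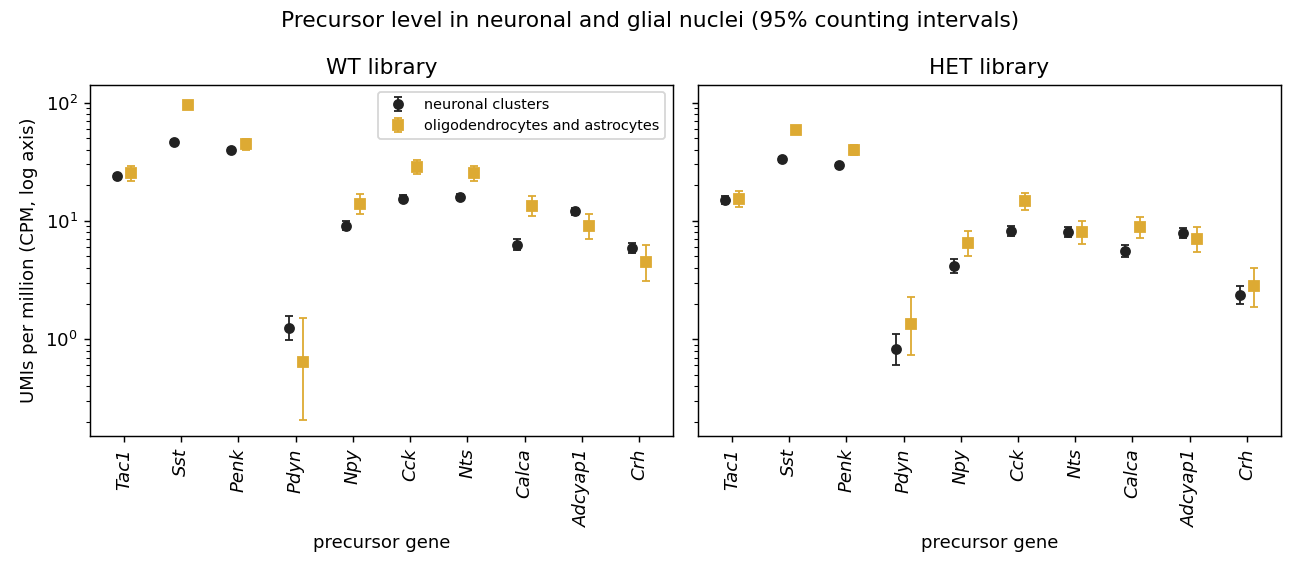
Level of each precursor in CPM on a log axis, with 95% Poisson intervals, in neuronal clusters (circles) and in oligodendrocytes and astrocytes that carry both labels (squares), for the WT library on the left and the HET library on the right. The glial points lie at or above the neuronal points for most genes, as for Sst at 96.1 against 46.5 CPM in WT.

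A single UMI had the same limit. When every nucleus was thinned to 1000 UMIs, a UMI of Tac1 was expected in 2.99% of WT neuronal nuclei and 2.85% of WT glial nuclei, and in HET in 1.83% and 1.70%. For Sst the glial share was the larger, at 10.4% against 5.87% in WT. Unthinned, 13.3% of WT neuronal and 7.85% of WT glial nuclei held a UMI of Tac1. Between 47.9% and 75.6% of the UMIs of each precursor in WT, and between 56.8% and 80.8% in HET, came from nuclei with only 1 UMI of that gene.

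Several UMIs of 1 precursor in the same nucleus were found in a larger share of neuronal than of glial nuclei. This cutoff was applied without thinning, to neuronal nuclei with a median of 7729 UMIs in WT and glial nuclei with 2773. The part of depth in the difference was not tested. With at least 3 UMIs required, Tac1 was counted in 121 of 6118 WT neuronal nuclei, 1.98% (interval 1.64 to 2.36), and in 2 of 2344 WT glial nuclei, 0.0853% (0.0103 to 0.308). Penk was counted in 191 WT neuronal nuclei and in 2 glial ones. Sst had the highest glial share, 0.64% in WT, against 2.89% of neuronal nuclei. Its counted nuclei may therefore be background to an extent that was not tested. Pdyn was counted in 2 nuclei of each library, and its 86 WT and 59 HET UMIs were too few to place it in any cluster. The nuclei with at least 3 UMIs are called counted nuclei below, and they were used to describe where each precursor was found.

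**Figure D2:**
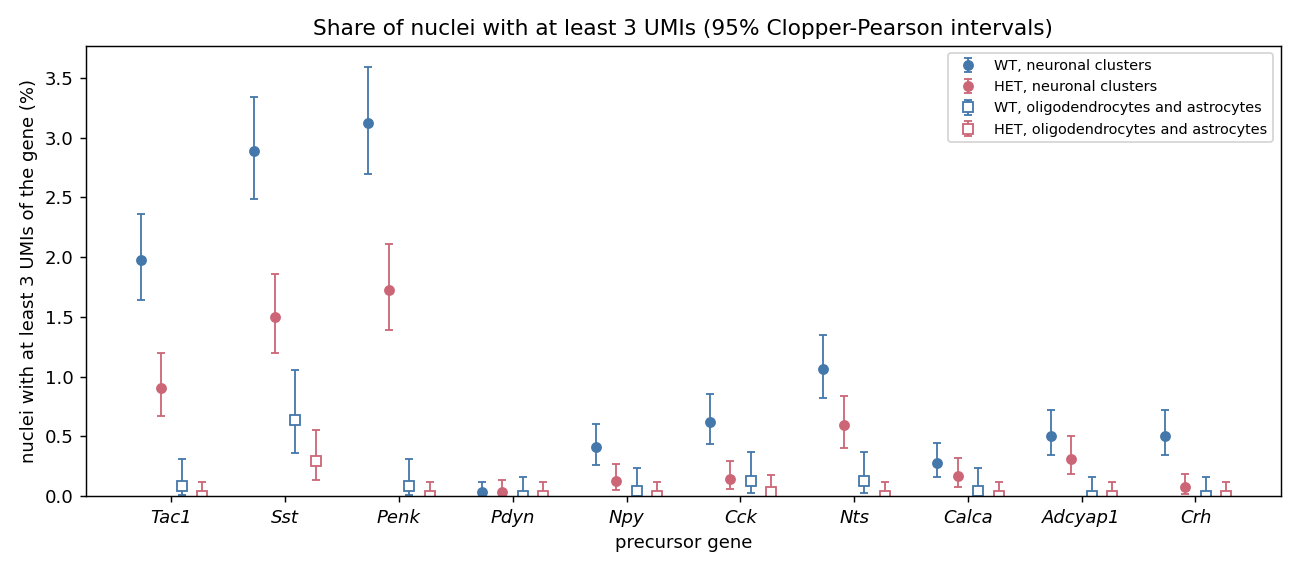
Percentage of nuclei with at least 3 UMIs of each precursor, with 95% Clopper-Pearson intervals, in neuronal clusters (filled) and in glia with both labels (open) of the WT and HET libraries. Neuronal shares reach 3.12% for Penk in WT, and glial shares stay under 0.65%.

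Tac1, the precursor of substance P, reached its highest level in neuron.7, a cluster of 46 WT and 33 HET nuclei. Its 98 UMIs there gave 109 CPM (88.8 to 133), above the interval of every larger cluster. The cluster also held Tph2 and Slc6a4, the enzyme and transporter that define serotonergic neurons, at a summed level with Fev of 2030 CPM against 1.63 CPM in neuron.1. Tac1 was counted in 12 of the 46 WT nuclei, 26.1% (14.3 to 41.1), and in 1 of the 33 HET nuclei, 3.03% (0.0767 to 15.8). Most counted nuclei, 141 of 175, nevertheless lay in neuron.1, the largest cluster, and 87 of them in its subcluster 0.

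Adcyap1, the precursor of PACAP, was also found in subcluster 0, which held 32 of its 48 counted nuclei, 17 from WT and 15 from HET. That was 1.32% of the WT nuclei of the subcluster (0.771 to 2.10) and 0.952% of the HET nuclei (0.534 to 1.56), shares whose intervals overlap widely. No glial nucleus of either library was counted for it, which allows a glial share of up to 0.157% in WT. The cluster with its highest level was neuron.2, at 24.7 CPM (20.8 to 29.2), although only 4 of its counted nuclei lay there.

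Penk, the precursor of the enkephalins, was counted in more neuronal nuclei than any other member. Neuron.1 held 253 of its 292 counted nuclei, 175 from WT and 78 from HET, and they were distributed over its subclusters, with 90 in subcluster 0, 58 in subcluster 3, 31 in subcluster 1, 28 in subcluster 5 and 24 in subcluster 10. Its level by cluster was no guide to its cells: the highest values were in endothelial nuclei, at 60.8 CPM (46.5 to 78.1), and fibroblasts, at 60.4 CPM (45.2 to 78.9), with neuron.2 at 57.0 CPM and all 3 intervals overlapping. Pdyn, the other opioid precursor, had its highest value in epend.1 on 5 UMIs.

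Neuron.2 was the peptide-rich cluster. It held 542 WT and 275 HET nuclei, all in subclusters 12 and 14, and expressed Slc17a6, the vesicular glutamate transporter of brainstem excitatory neurons. Nts was at 99.3 CPM there (91.2 to 108), and the cluster, with 4.47% of all nuclei, held 31.9% of all Nts UMIs and 72 of the 103 counted nuclei. Subclusters 12 and 14 shared Nts, with 114 CPM (102 to 128) and 83.5 CPM (73.4 to 94.5).

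Sst separated these subclusters. It was at 166 CPM (151 to 183) in subcluster 12, where 57 of 452 nuclei were counted, 12.6% (9.69 to 16.0), and in subcluster 14 in only 3 of 377 nuclei. Cck had 25 of its 51 counted nuclei in neuron.2, 19 in subcluster 12, 4.2% (2.55 to 6.49), and 6 in subcluster 14, 1.59% (0.586 to 3.43), with overlapping intervals. The remaining Sst nuclei were mostly in neuron.1, which held 188 of 288.

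Calca was counted in 18 WT and 9 HET nuclei, of which 4 and 5 held at least 5 UMIs. The level in neuron.8 was 26.6 CPM (19.1 to 36.1), and 5 of its 44 WT and none of its 9 HET nuclei were counted, the latter allowing a share of up to 33.6%. This cluster held Chat, Slc5a7, Isl1 and Prph, markers of cholinergic motor neurons, at a summed level with Slc18a3 of 689 CPM against 17.8 CPM in neuron.1. The higher value in neuron.9, 86.2 CPM, rested on 8 UMIs in 37 nuclei, a cluster in which choroid plexus genes summed to 4678 CPM. A further 7 counted nuclei lay in subcluster 12 and 13 in neuron.1.

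Crh was concentrated in a small cluster. Neuron.6 held 168 of all its 562 UMIs, at 98.4 CPM (84.1 to 114), and 25 of its 36 counted nuclei. That cluster was marked by Foxp2, at 2246 CPM against 57.5 CPM in neuron.1, and Htr5b, at 77.3 against 0.506 CPM, both genes of the inferior olive. Igfbpl1, the third gene of that list, did not mark it, at 1.76 CPM on 3 UMIs against 1.6 CPM in neuron.1. The cluster held 120 WT but only 5 HET nuclei. The second site was neuron.4, with 67 UMIs, 9.35 CPM (7.25 to 11.9) and 7 counted nuclei, 4 from WT and 3 from HET. Neuron.4 held the 3 vesicular glutamate transporters, mostly Slc17a7, at a summed 184 CPM against 82.2 CPM in neuron.1.

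Npy had no cluster of its own. In subcluster 9 of neuron.1 it stood at 22.6 CPM (19.1 to 26.6), and 6 of the 436 WT and none of the 311 HET nuclei there were counted, the latter allowing up to 1.18%. Of its 33 counted nuclei, 30 were in neuron.1.

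**Figure D3:**
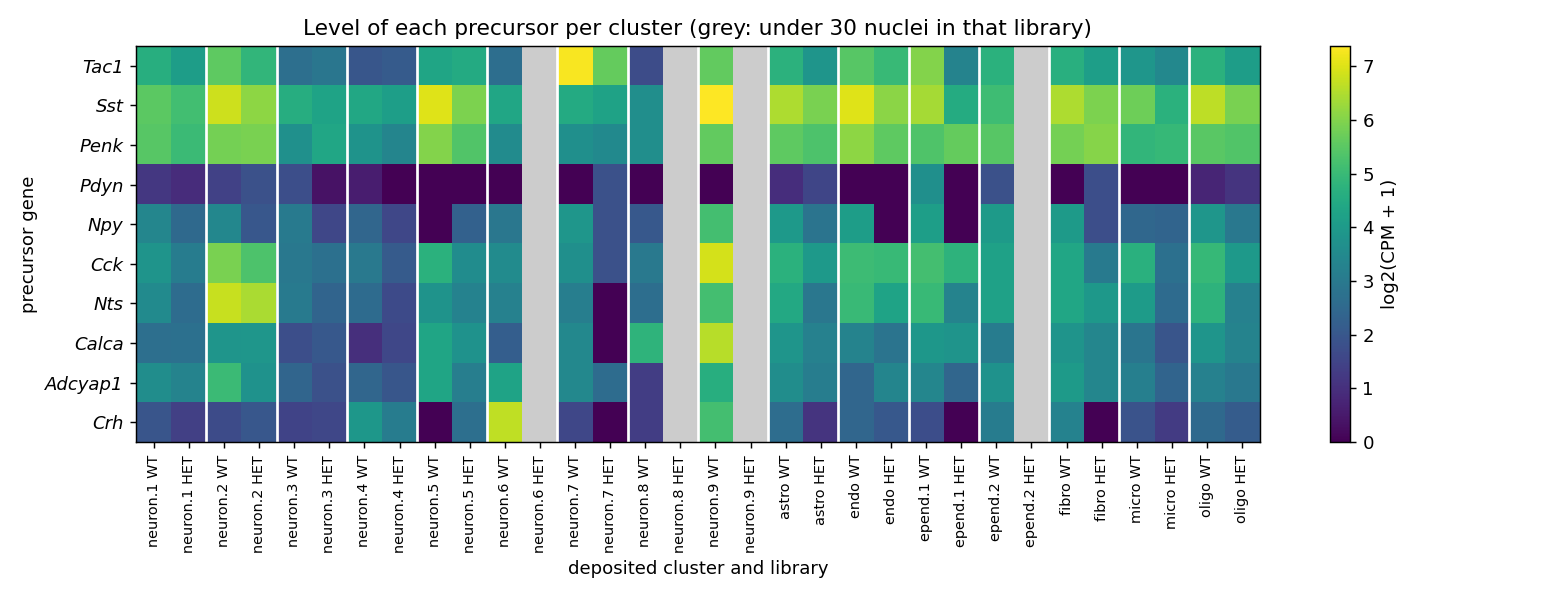
Level of each precursor as log2(CPM + 1) in each deposited cluster, WT and HET side by side, with grey where a library had under 30 nuclei. Tac1 in neuron.7, Nts in neuron.2 and Crh in neuron.6 stand out from their rows, whereas Sst and Penk are as high in glial, endothelial and fibroblast nuclei as in neurons.

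The transmitter genes of the counted nuclei were compared with those of all other neuronal nuclei, both libraries together. Median depths were similar for Tac1, 8507.5 against 8051 UMIs, and differed most, among the 9 precursors other than Pdyn, for Crh, 12942 against 8041 UMIs. Slc17a6 was at 129 CPM (112 to 148) in nuclei counted for Tac1 and at 77.5 CPM in the others, and its level was 147 CPM (114 to 187) for Adcyap1, 136 CPM (113 to 164) for Nts and 131 CPM (97.8 to 171) for Cck. Slc6a5, the glycine transporter that marks glycinergic neurons, was lower in the same nuclei, for example 6.60 CPM (1.36 to 19.3) in those counted for Adcyap1 against 82.5 CPM in the others.

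Penk went the other way. Slc6a5 was at 116 CPM (105 to 129) in its counted nuclei against 81.2 CPM in the others, and Slc32a1, the vesicular transporter of GABA and glycine, at 50.9 CPM (43.3 to 59.4) against 34.3 CPM. The excitatory Slc17a6 was alike, at 76.8 and 78.3 CPM. Npy nuclei, of which there were 32, had Gad1, an enzyme that makes GABA, at 108 CPM (75.1 to 152) against 33.0 CPM in the others, with a UMI in 62.5% (43.7 to 78.9) against 20.7% of nuclei. Their Slc32a1 was at 54.2 CPM (31.6 to 86.8) against 34.7 CPM, and these intervals overlap. Sst nuclei were mixed, with Slc32a1 at 34.5 CPM against 34.8 CPM and Slc17a6 at 94.2 CPM (82.6 to 107) against 77.9 CPM.

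Other transmitters differed for single precursors. Slc6a4, the serotonin transporter, was at 64.3 CPM (52.4 to 78.2) in Tac1 nuclei and at 5.40 CPM in the others. That level came from few of the 170 Tac1 nuclei, as 8.82% of them (5.02 to 14.1) held a UMI of Slc6a4. Among the others the share was 1.08%. Chat, which makes acetylcholine, was at 126 CPM (91.2 to 169) in the 26 nuclei counted for Calca and at 5.83 CPM in the others. The 35 Crh nuclei held Gad2 at 8.09 CPM (2.63 to 18.9) against 68.3 CPM, and Slc17a6 at 76.0 CPM (55.9 to 101) against 78.2 CPM.

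**Figure D4:**
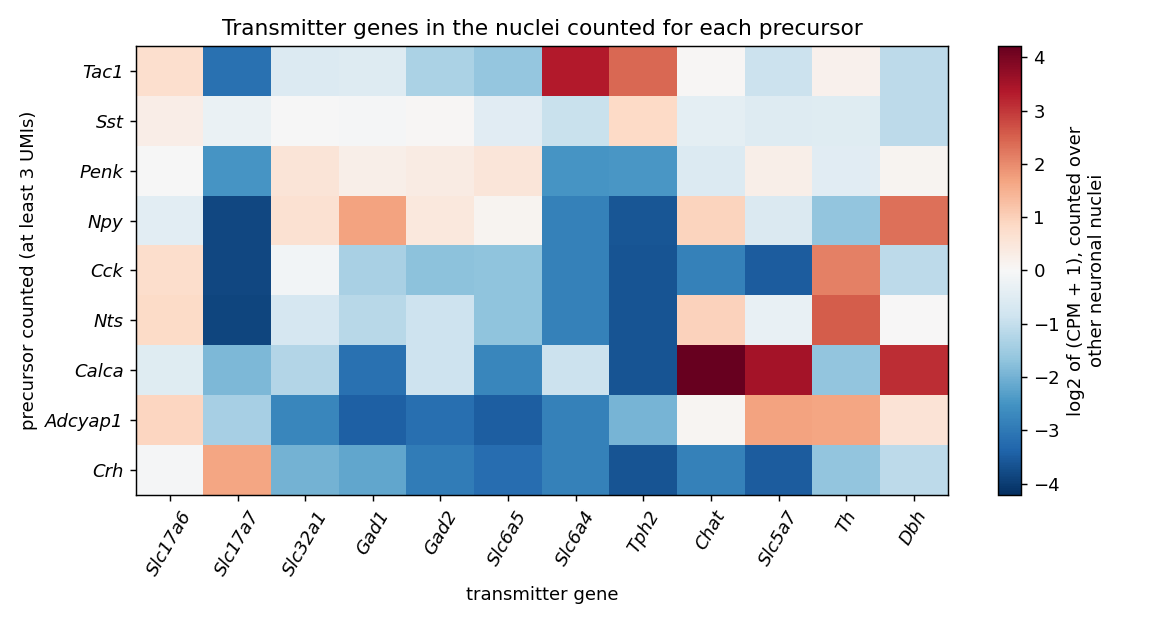
Colour gives the log2 ratio of (CPM + 1) of each transmitter gene in the nuclei counted for a precursor over all other neuronal nuclei, both libraries together; Pdyn, with 4 counted nuclei, is left out. Red marks Slc6a4 and Tph2 with Tac1 and Chat and Slc5a7 with Calca, and blue marks the inhibitory genes in Adcyap1 and Crh nuclei.

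Precursors also shared nuclei. Nuclei counted for Adcyap1 had Tac1 at 79.2 CPM (55.4 to 110) against 19.4 CPM in other neurons, and 6 nuclei were counted for both. Nuclei counted for Calca had Nts at 111 CPM (79.1 to 152) against 11.9 CPM, with 5 nuclei counted for both. Sst was at 126 CPM (93.5 to 165) in Cck nuclei against 39.9 CPM, and Penk at 82.3 CPM (64.2 to 104) in Nts nuclei against 34.6 CPM. Some of these pairs share a subcluster, Cck, Sst and Nts in subcluster 12. The level of Calca in Npy nuclei, 156 CPM, came almost wholly from 1 HET nucleus with 48 Calca and 4 Npy UMIs.

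Between the genotypes, all 10 precursors were lower in HET over all nuclei, as were 58.9% of the 21997 genes with at least 20 UMIs. Ratios are given as log2 of CPM in HET over WT, so that −1 is a 2-fold lower level. The interval lay below 0 for 9 of the 10, against 39.8% of all genes, and the level was lower by over 2-fold for 3, Npy, Nts and Crh, against 4.94% of all genes. The median was −0.64 for the members and −0.09 for all genes tested.

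Gene length bears on that background. Among genes with a span of at most 15 kb, as all 10 members have, the median was −0.25, 66.9% were lower in HET, 46.0% had an interval below 0 and 8.35% were lower by over 2-fold. Among short genes with at least 200 UMIs, which all members but Pdyn reach, 75% were lower in HET, 61.5% had an interval below 0 and 5.26% were lower by over 2-fold, so the direction alone was common among genes of this length and level. Set against these short genes with at least 200 UMIs, Calca and Penk were near the middle, with 56.3% and 45.8% of them lower still, whereas Crh, Npy and Nts had 2.1%, 3.13% and 3.47% of them below. The other 5 members lay between.

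Tac1 was measured with 1705 UMIs in WT, 24.3 CPM, and 995 in HET, 15.04 CPM, a log2 ratio of −0.69 (−0.80 to −0.58). Adcyap1 was measured with 815 and 509 UMIs, 11.6 and 7.69 CPM, a ratio of −0.59 (−0.75 to −0.43). Both were lower in HET by less than 2-fold.

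Penk, of the opioid precursors, was measured with the narrower interval. It had 2847 UMIs in WT and 2089 in HET, 40.5 and 31.6 CPM, a ratio of −0.36 (−0.44 to −0.28). Pdyn had 86 and 59 UMIs, 1.22 and 0.892 CPM, and the interval of its ratio, −0.46 (−0.96 to 0.04), held 0.

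Sst had 3744 and 2469 UMIs, 53.3 and 37.3 CPM, with a ratio of −0.51 (−0.59 to −0.44). Cck had 1216 and 619 UMIs, 17.3 and 9.35 CPM, with a ratio of −0.89 (−1.03 to −0.75). Nts had 1207 and 532 UMIs, 17.2 and 8.04 CPM, with a ratio of −1.09 (−1.24 to −0.95). The intervals of Cck and Nts, which share neuron.2, overlap.

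Npy had 686 and 297 UMIs, 9.76 and 4.49 CPM, and a ratio of −1.12 (−1.32 to −0.92). Calca had 508 and 403 UMIs, 7.23 and 6.09 CPM, and a ratio of −0.25 (−0.44 to −0.06). Crh had 403 and 159 UMIs, 5.73 and 2.40 CPM, and the lowest ratio of the 10, −1.25 (−1.53 to −0.99).

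**Figure D5:**
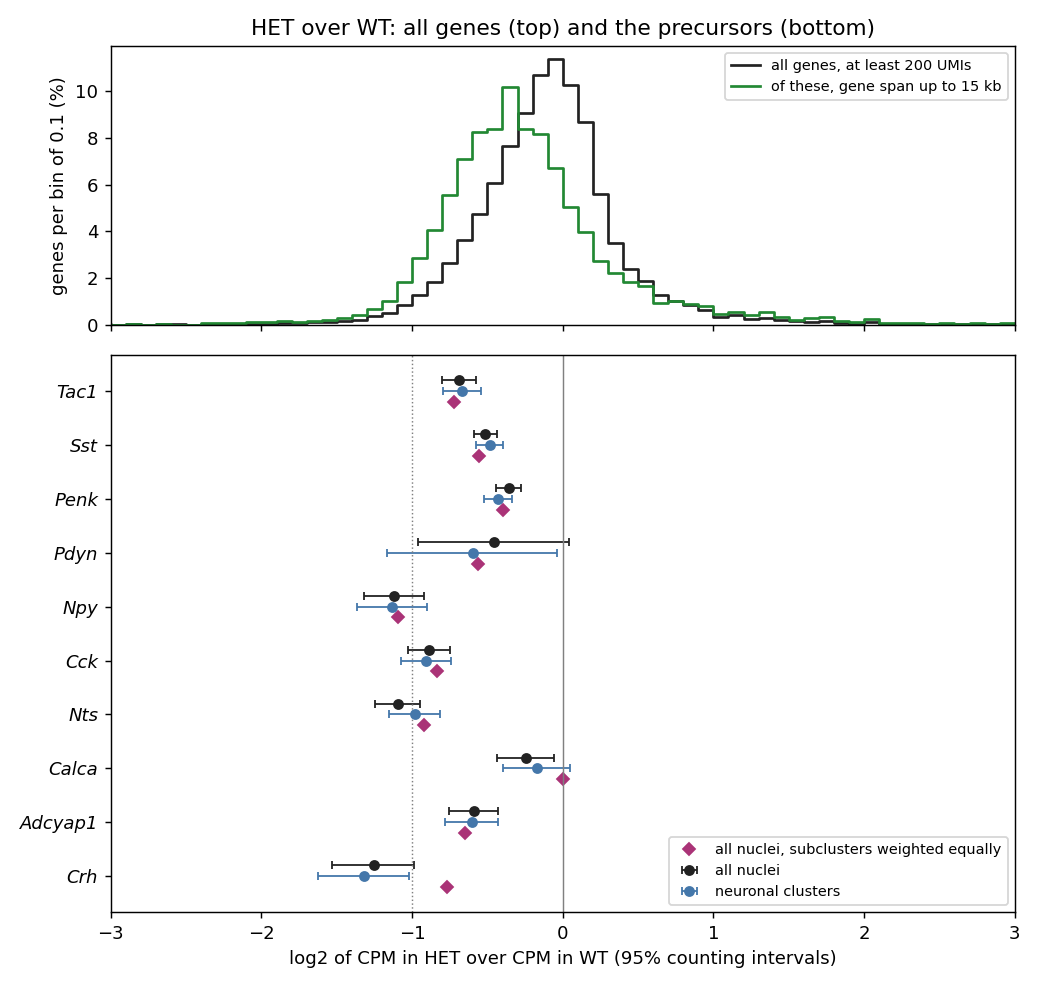
Top, the distribution of log2 HET over WT ratios over genes with at least 200 UMIs, in percent of genes per bin of 0.1, for all genes and for those with a span of at most 15 kb. Bottom, the ratio of each precursor with its 95% counting interval over all nuclei and over neuronal clusters, and, as diamonds, over all nuclei with subclusters weighted equally in both libraries; over all nuclei every ratio lies left of 0, and Crh moves from −1.25 to −0.77 with equal weights.

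Lower values were also measured over the pooled glia. There the ratio was −1.66 (−2.05 to −1.29) for Nts, on 197 and 83 UMIs, −1.08 (−1.54 to −0.63) for Npy, −0.97 (−1.28 to −0.67) for Cck and −0.71 (−0.86 to −0.55) for Sst. For Penk it was −0.15 (−0.36 to 0.06), on 345 and 415 UMIs. Of the 9 members with at least 20 glial UMIs, 6 had an interval below 0, against 27.3% of all genes and 36.7% of short genes in glia. In neuronal clusters 9 of 10 had one, against 37.2% of all genes and 44.4% of short genes. The oligodendrocytes of the libraries fell largely into different subclusters, with 825 WT and 35 HET nuclei in subcluster 8 and 39 WT and 827 HET nuclei in subcluster 6. In subcluster 2, where both libraries had nuclei in like number, 768 and 789, 5 of 9 members had an interval below 0, against 18.4% of all genes there, and the median of the members was −0.62. In the 3 other oligodendrocyte subclusters, in which 1 library held most nuclei, none did, of 6 members in subcluster 6 (4.22% of all genes), 7 in subcluster 7 (11.3%) and 8 in subcluster 8 (2.06%), with medians of 0.37, 0.22 and −0.76. No share of short genes was taken within these subclusters. The part of the glial level in the neuronal ratios was not tested.

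Counted nuclei gave a second view, less open to that level. The share of neuronal nuclei counted was 1.98% in WT and 0.909% in HET for Tac1, 2.89% and 1.50% for Sst, and 3.12% and 1.72% for Penk. It was 0.621% and 0.148% for Cck, 0.507% and 0.0742% for Crh, 1.06% and 0.593% for Nts, 0.409% and 0.13% for Npy, 0.507% and 0.315% for Adcyap1 and 0.278% and 0.167% for Calca. The intervals of the libraries did not overlap for 5 of the 9 genes counted in at least 20 nuclei, Tac1, Sst, Penk, Cck and Crh, against 23.9% of the 9574 genes so counted and 47.8% of the 1829 such genes with a short span. The median log2 ratio of the shares was −0.95 for the members and −0.95 for the short genes, so the share of counted nuclei set the precursors apart from all genes but not from genes of their length.

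Within clusters the differences were uneven. In neuron.1, 8 of 10 members had an interval below 0, against 36.2% of all genes and 44.4% of short genes there, with Nts at −1.03 (−1.27 to −0.79), on 507 and 209 UMIs, and Npy at −1.01 (−1.26 to −0.77), on 458 and 191 UMIs. Nts stood at 10.5 CPM in WT and 5.14 CPM in HET in neuron.1, against 25.3 and 7.98 CPM in glia. Npy stood at 9.48 and 4.70 CPM there, against 13.9 and 6.54 CPM in glia. By the rule above, the levels of Nts and Npy in neuron.1 were therefore read as background. The same held in both libraries for Sst, Penk, Cck, Calca and Crh. Sst, for example, stood at 45.2 and 34.2 CPM, against 96.1 and 58.9 CPM in glia. Tac1 was below glia only in WT and Pdyn only in HET. Adcyap1 was above glia in both, at 11.2 and 8.88 against 8.98 and 7.02 CPM. Most of the 8 intervals below 0 in neuron.1 thus belonged to levels read as background. The rule concerns levels summed over a cluster, not its counted nuclei. Calca did not differ beyond counting error in neuron.1, at 0.04 (−0.22 to 0.30). Of its 228 HET UMIs there, 48 were in 1 nucleus. In neuron.2, 6 of 8 had an interval below 0, against 15.9% of all genes and 25.6% of short genes, and Adcyap1 was the lowest of those with over 100 UMIs, at −1.32 (−2.01 to −0.68), on 113 and 25 UMIs.

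Nts differed less in neuron.2, its main site, than over all nuclei. In neuron.2 it stood at 106 CPM in WT and 86.7 CPM in HET, a ratio of −0.29 (−0.56 to −0.03), and it was counted in 48 of 542 WT nuclei, 8.86% (6.60 to 11.6), and 24 of 275 HET nuclei, 8.73% (5.67 to 12.7). The cluster itself held fewer nuclei in HET, 275 against 542. Cck in the same cluster was counted in 22 WT nuclei, 4.06% (2.56 to 6.08), and 3 HET nuclei, 1.09% (0.226 to 3.15), and its ratio was −0.60 (−1.0 to −0.22). Penk there had a ratio of 0.08 (−0.26 to 0.41).

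In the serotonergic neuron.7, Tac1 had 79 UMIs in WT and 19 in HET, 156 and 49.0 CPM, a ratio of −1.67 (−2.47 to −0.93), where 8.27% of all genes had an interval below 0. No share of short genes was taken in that cluster. Tac1 was the only precursor with at least 20 UMIs there. The comparison rested on 46 and 33 nuclei. In subcluster 0 of neuron.1, the main site of Tac1 and Adcyap1, the ratios were −0.78 (−0.98 to −0.58) and −0.69 (−0.95 to −0.43).

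Crh could not be compared where it was highest, since neuron.6 had only 5 HET nuclei, none with a Crh UMI, against 25 of 120 WT nuclei counted, 20.8% (14.0 to 29.2). Without neuron.6, neuron.8, neuron.9 and epend.2, its ratio over all nuclei was −0.49. In neuron.4 it was at 13.8 CPM in WT and 7.59 CPM in HET, on 28 and 39 UMIs, a ratio of −0.87 (−1.60 to −0.11). The lower Crh over all nuclei thus came with a lower number of neuron.6 nuclei, and a loss of those neurons cannot be told apart from a different dissection.

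Single nuclei weighed heavily on Calca. Calca was higher in HET in subcluster 1, with 113 UMIs in WT and 74 in HET, a ratio of 0.65 (0.20 to 1.08), but 48 of the HET and 23 of the WT UMIs came from 1 nucleus each. Without the top nucleus of each library the ratio was −0.53 (−1.22 to 0.11). Over all nuclei, the ratio of Calca was −0.25, and −0.39 without the 5 nuclei with the most UMIs of it in each library.

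The machinery that makes and stores peptides was closer to all genes. Of 19 genes for processing and dense-core vesicles, 10 had an interval below 0 and 5 above 0, against 39.8% and 24.8% of all genes. None differed by 2-fold, and the median was −0.10. The 4 with the most UMIs were Cadps, which primes dense-core vesicles, at 0.03 (0.02 to 0.05), Ptprn2, a vesicle membrane protein, at 0.08 (0.06 to 0.10), Pcsk2, a convertase, at −0.39 (−0.42 to −0.37), and Pcsk1n, a convertase inhibitor, at −0.72 (−0.75 to −0.69). Of the 23 receptor and binding protein genes with at least 20 UMIs, 11 had an interval below 0 and 4 above 0, a share below 0 near that of all genes, 39.8%, with a median of −0.29. Among those with the most UMIs, Sort1, a neurotensin-binding sorting receptor, was at −0.05 (−0.11 to 0.00), and Oprm1, the mu opioid receptor, was higher in HET at 0.18 (0.13 to 0.24). Adcyap1r1, the PACAP receptor, was at 0.05 (−0.03 to 0.13) and Ntsr2, a neurotensin receptor, at 0.18 (0.07 to 0.29).

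Other precursors were counted in the same way. Of the 28 with at least 20 UMIs, 19 had an interval below 0 and 3 above 0, against 39.8% and 24.8% of all genes. By over 2-fold, 10 were lower and 4 higher, against 4.94% and 5.1% of all genes, and the median was −0.72. Among genes with a span of at most 15 kb, 46.0% had an interval below 0 and 8.35% were lower by over 2-fold. Nppc, encoding C-type natriuretic peptide, had 1165 and 650 UMIs and a ratio of −0.75 (−0.90 to −0.61), Gal, encoding galanin, 829 and 307 UMIs and −1.35 (−1.54 to −1.16), and Pnoc, encoding nociceptin, 681 and 434 UMIs and −0.56 (−0.74 to −0.39). Agrp, with 6774 and 4030 UMIs, has a gene model of 70696 bases that overlaps 7 other genes, so its count is uncertain. Uts2, Avp and Nps had an interval above 0, on 52 and 125, 7 and 38, and 7 and 20 UMIs. They were, with Qrfp on 8 and 17 UMIs, the 4 higher by over 2-fold, and were picked out after their values were seen.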

How the data were processed

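The authors deposited raw UMI counts per gene and nucleus from 10x 3′ v3.1 libraries, made with Cell Ranger (version not given in the sources used here) on its default mm10 reference and filtered in Seurat 4.1, by nuclei with too few genes or too many mitochondrial UMIs. They had removed doublets before deposit, with a caller that is not named. The authors' percent values per nucleus (ribosomal protein and mitochondrial UMIs) and their doublet score, clusters, subclusters and second cell label were used as deposited. The projected class names were not used.

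UMIs were summed per library and cluster and scaled per 1000000 (CPM), as the counts have no replicate. Ratios have exact conditional Poisson intervals, CPM exact Poisson intervals and shares exact Clopper-Pearson intervals, at 95%. UMIs of 1 nucleus are not independent, so intervals and limits cover counting error only. A gene needed 20 UMIs in both libraries together, a cluster 30 nuclei, and in genotype comparisons 30 in each library. No count test was used, since 1 library per genotype leaves no replicate. Gene positions came from GENCODE vM21 and promoters from RefSeq on GRCm38.p6. Named genes were the 10 members, the 4 of each list with the most UMIs, and the 3 genes most like each member over subclusters. The members, lists and alternatives were chosen with earlier results of these data known, and every list was written by hand. Alternatives were other scalings, equal weights of clusters or subclusters, other sets of nuclei, other minimum counts and other cutoffs of UMIs per nucleus. With equal weights, each cluster or subcluster had the same weight in both libraries, and those with under 30 nuclei in either library were left out. Intervals came from scipy (1.17.1), tables from pandas (2.3.3) and numpy (2.4.6) and plots from matplotlib (3.10.9), all under Python (3.11.15), and the intervals were checked on simulated counts.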

Additional observations from a re-analysis of the deposited data

Results flagged for a closer look

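Penk was higher in HET in subcluster 13, which lies mostly in neuron.3, and lower in subcluster 21, and was listed here for these opposite directions. In subcluster 13 it had 20 UMIs in 148 WT nuclei and 67 UMIs in 243 HET nuclei, a log2 ratio of 1.20 (0.46 to 2.00). The UMIs were spread over 18 WT and 52 HET nuclei, and without the top nucleus of each library the ratio was 1.28. In neuron.3 as a whole, Penk stood at 12.1 CPM in WT and 19.7 CPM in HET, below the 44.3 and 39.9 CPM of glia. By the rule above, that level was read as background. In subcluster 21, a mixture of neuron.1, neuron.5 and neuron.9 nuclei, it had 23 UMIs in 56 WT nuclei and 13 UMIs in 70 HET nuclei, a ratio of −2.22 (−3.32 to −1.17), but 18 of the 23 WT UMIs were in 1 nucleus, and without the top nucleus of each library the ratio was −0.34 (−1.99 to 1.53), on 5 and 11 UMIs. Subcluster 21 drew its 35 WT nuclei of neuron.9 and its 46 HET nuclei of neuron.5 from different clusters, and the part of that in the ratio was not tested. The difference between the subclusters was not tested.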

How the results depend on the processing

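No paired analysis was possible because each genotype has 1 library. Of 130 alternative ratios of the 10 precursors, 103 stayed within the counting interval, 23 moved outside it in the same direction and 4 changed sign. The sign changed for Pdyn in glia (1.07, on 5 and 14 UMIs) and in counted nuclei (0.28). It also changed for Calca with equal weights of subclusters (0.0048) and in counted nuclei (0.053). Of the 83 HET UMIs of Calca in counted nuclei, 48 were in 1 nucleus, and of the 85 in WT, 23 were. The cause of these changes was not tested. Crh ranged from −3.46 to −0.49. From −1.25 it became −0.72 with equal weights of clusters, −0.77 with equal weights of subclusters and −0.53 without small clusters and neuron.5. These settings leave out neuron.6. The 3 precursors lower by over 2-fold became 1, Npy, with equal weights of clusters and 1, Npy, with equal weights of subclusters, and 5 when only UMIs in counted nuclei were used. The percentage of all genes lower by over 2-fold, 4.94%, became 2.7% with a minimum of 200 UMIs and 8.35% for genes with a span of at most 15 kb. Setting the median log2 ratio of genes to 0 raised every ratio by 0.10. Scaling, totals without ribosomal protein genes, depth and doublet scores changed no direction. Alternatives with the short genes, glia, counted nuclei and without the WT clusters were added after the data had been seen. With 1 library per genotype, no setting measures the spread between animals, and Pdyn, at 145 UMIs in all, was limited by depth.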

Other observations

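The genes whose level followed each precursor most closely were found by Pearson's r of log2(CPM + 1) over the 34 subclusters with at least 30 nuclei, both libraries together, among genes with at least 200 UMIs. These values are descriptions, since subclusters share libraries, depth and free RNA. Cck and Nts were each other's nearest gene, at 0.86, and Nts was followed by Tac2, the precursor of neurokinin B, at 0.77 and C1ql3 at 0.72. Adcyap1 was nearest to Cartpt, another peptide precursor, at 0.70, then to Caly at 0.70 and Scg2, a dense-core vesicle granin, at 0.68. Tac1 was nearest to Resp18 at 0.80, Lrpap1 at 0.79 and Saraf at 0.78. Crh was nearest to Ano2, a calcium-activated chloride channel, at 0.69, Calb2 at 0.60 and Mb21d2 at 0.58.

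Sst was nearest to Atp6v0c at 0.89, Ssr1 at 0.88 and Serinc1 at 0.88, and Penk to Serinc1 at 0.85, Sst at 0.83 and Atp6ap2 at 0.82, genes that many cell types use. Npy was nearest to Ndufaf8 at 0.83, Fpgs at 0.79 and Ift27 at 0.76, Cck after Nts to Yif1a at 0.80 and Arpc4 at 0.78, and Calca to Ddx56 at 0.60, Ralgds at 0.58 and Rnf122 at 0.56. Pdyn, on few UMIs, was nearest to Rsph4a at 0.76 and Cfap70 at 0.72, genes of motile cilia, and to Lrp2 at 0.71.

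Scn1a, the mutated channel gene, was lower in the nuclei counted for several precursors than in other neuronal nuclei, both libraries together. It was at 348 CPM (328 to 369) against 463 CPM for Penk, 292 CPM (266 to 320) against 462 CPM for Tac1, 301 CPM (253 to 356) against 461 CPM for Adcyap1, 285 CPM (244 to 330) against 461 CPM for Crh and 249 CPM (197 to 311) against 461 CPM for Npy. It was at 465 CPM (401 to 537) in Cck nuclei and at 442 CPM (399 to 489) in Nts nuclei, both overlapping the level of the others.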
